A study of Mus musculus with 8 samples.

Results

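The germ cell Tudor domain proteins are a family of RNA-granule scaffolds of the male germ line, and 9 of their genes were followed here: Tdrd1, Tdrd5, Tdrd6, Tdrd7, Tdrd9, Tdrd12, Tdrkh, Rnf17 and Stk31. They were picked by symbol as a gene family, with no threshold on a measured value. The choice was made with earlier results of these data known, so comparisons of the members with all genes are descriptive. All 9 had an entry among the 28460 gene symbols of the count table. The samples were spermatogenic cells of postnatal day 12 mice of mixed background, in 4 Brg1 WT and 4 Brg1 cKO libraries, where cKO is the conditional knockout of Brg1, the ATPase of SWI/SNF chromatin remodelling complexes, encoded by Smarca4. Cells were freed from the testes by enzyme digestion and passed through a fine sieve, with no sort on a marker, so other testis cells can be present. The sources used here do not name the Cre driver, the deleted exons or whether a library pools animals, and p-values measure the spread between libraries. Libraries held 20456743 to 32596038 estimated counts.

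A Tudor domain is a small fold that binds methylated arginine or lysine. In germ cells these proteins read methylated arginines on PIWI proteins, the Argonaute relatives that carry piRNAs, and gather them with RNA helicases and nucleases in cytoplasmic granules beside mitochondria, the intermitochondrial cement, and later in the chromatoid body of spermatids. piRNAs silence transposons in the male germ line, and mouse mutants of many family members arrest in spermatogenesis. At the age studied the most advanced cells of the first spermatogenic wave are in meiotic prophase, so the spermatid stage, where Tdrd6 and the chromatoid body are best known, is not yet reached.

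The knockout label was checked first. Smarca4 was at 347, 357, 347 and 338 CPM (normalised counts, with library totals scaled by TMM factors to 1000000) across the Brg1 WT replicates. Across the Brg1 cKO replicates it was at 129, 122, 111 and 122 CPM, so the groups did not overlap and each library went with its label. Its log2 fold change, Brg1 cKO over Brg1 WT, was -1.52 ± 0.061 (SE, n = 4 libraries per group; edgeR quasi-likelihood test, adjusted p = 6.79e-06).

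In Brg1 cKO, 8 of the 9 Tudor genes had a lower mean level than in Brg1 WT, and 3 fell: Tdrkh, Rnf17 and Tdrd7. The largest called difference was that of Tdrkh, 1.63-fold lower (95% interval 1.36 to 1.95). None rose (0 with a positive change at an unadjusted p under 0.05, and 0 by DESeq2 or limma-voom), and Tdrd5 was the member whose mean was not lower. A gene is called here at an adjusted p under 0.05 in edgeR's quasi-likelihood test, adjusted by Benjamini-Hochberg over the 16059 genes that passed the filter on low counts, which all 9 members did. Of all genes tested, 11.8% were called lower and 8.79% higher. The members' median log2 fold change was -0.39 and that of all genes tested 0.01. Of all genes, 14.3% had a log2 fold change below the members' median. The count of members called lower was 5 without Brg1 cKO replicate 2 (all genes: 1980 of 16230 lower). It was 2 without any 1 of Brg1 WT replicates 1 and 2 and Brg1 cKO replicates 1 and 3. All genes called lower then numbered 1052 to 1323. With marker lists taken as no change, given further on, the count of members ran from 0 to 8. DESeq2, run on the same counts, called 6: the same 3 and Tdrd1 (adjusted p = 0.0360), Tdrd9 (0.0387) and Stk31 (0.0335). It called 2227 of 16059 genes lower. Library composition moved with these differences and is given further on: 5 of 17 markers of germ cells in general were called lower in Brg1 cKO and 9 of 20 Sertoli markers higher, and in such bulk samples fewer cells of a type and less RNA per cell cannot be told apart.

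**Figure D1:**
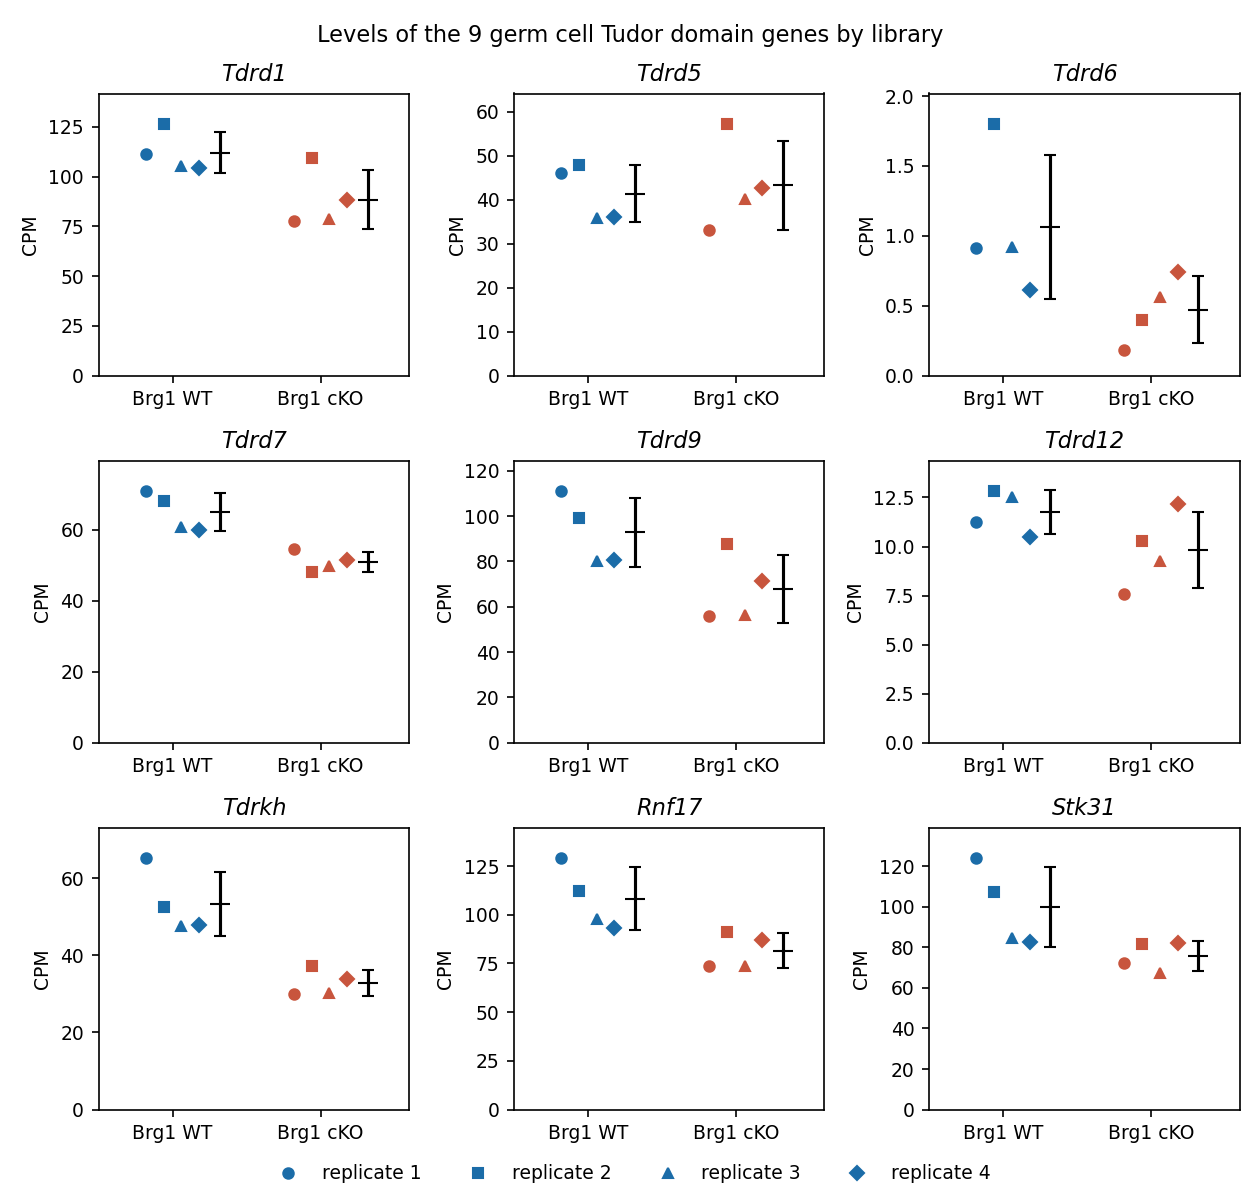
CPM (y axis, from 0, a scale of its own in each panel) of each member in the 4 Brg1 WT (blue) and 4 Brg1 cKO (red) libraries, with marker shape for the replicate number and black bars for the mean ± SD. All Brg1 cKO points lie below all Brg1 WT points for Tdrd7, Tdrkh, Rnf17 and Stk31, while Tdrd5 has its highest point, 57.2 CPM, in Brg1 cKO replicate 2.

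Tdrkh encodes a Tudor and KH domain protein anchored to the mitochondrial surface, where it brings PIWI proteins to the nuclease that trims piRNA 3′ ends. It was at 65.3, 52.5, 47.5 and 47.9 CPM in Brg1 WT replicates 1 to 4. In Brg1 cKO it was at 29.9, 37.1, 30.3 and 33.8 CPM. Every Brg1 cKO library was below every Brg1 WT library, and the gap between the groups ran from 37.1 to 47.5 CPM. This gap was wider than the whole range of the Brg1 cKO libraries and narrower than that of the Brg1 WT libraries. The mean moved from 53.3 ± 8.31 CPM to 32.8 ± 3.38 CPM (SD, n = 4), a log2 fold change of -0.70 ± 0.12 (SE, edgeR adjusted p = 0.00555). The call held when any library was left out, with log2 fold changes from -0.77 to -0.59, and ended with the undifferentiated spermatogonia list as no change (-0.20, edgeR adjusted p = 0.300). By GENCODE M21, 2255 exonic bases of Tdrkh, 36.7% of its exonic sequence, overlap exons of Oaz3 on the opposite strand. Oaz3, a spermatid antizyme gene, had no entry under that symbol in the count table. No source used here says whether the quantification used the strand of the stranded kit. The share of Oaz3 reads in the Tdrkh value therefore cannot be told apart.

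Rnf17, which joins a RING finger to several Tudor domains and is known for holding back secondary piRNA production in meiotic cells, was at 129, 112, 97.9 and 93.4 CPM in Brg1 WT. In Brg1 cKO it was at 73.9, 91.2, 73.8 and 86.9 CPM. The groups did not overlap, but the highest Brg1 cKO library (replicate 2, 91.2 CPM) came close to the lowest Brg1 WT library (replicate 4, 93.4 CPM). Its log2 fold change came to -0.41 ± 0.11 (edgeR adjusted p = 0.0329). This call rested on single libraries, with log2 fold changes of -0.47 to -0.31 when 1 was left out: leaving out Brg1 WT replicate 1 gave an adjusted p of 0.0673, replicate 2 of that genotype 0.0814, Brg1 cKO replicate 1 0.0952 and replicate 3 of that genotype 0.0855. It also ended with the germ cell list as no change (log2 fold change -0.10, edgeR adjusted p = 0.446) and without Brg1 WT replicates 1 and 2 (-0.23, adjusted p = 0.220). These 2 libraries had its highest levels, and without them 438 genes were called in all.

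Tdrd7, a granule component known from the chromatoid body and also from the lens, was at 71.0, 68.1, 60.8 and 60.0 CPM in Brg1 WT. In Brg1 cKO it was at 54.5, 48.0, 49.6 and 51.5 CPM. The groups were apart, and Tdrd7 had the tightest Brg1 cKO replicates of the 9 genes, with a coefficient of variation of 5.48%. The mean moved from 65.0 ± 5.39 CPM to 50.9 ± 2.79 CPM (SD, n = 4), a log2 fold change of -0.35 ± 0.074 (edgeR adjusted p = 0.0131), and the call held when any single library was left out. It ended with the germ cell list as no change (log2 fold change -0.03, edgeR adjusted p = 0.875) and without Brg1 WT replicates 1 and 2 (-0.24, adjusted p = 0.130). These 2 libraries had its highest levels, and without them 438 genes were called in all.

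Stk31, which carries a Tudor domain beside a kinase-like domain, was not called but did not overlap either. It was at 124, 107, 84.7 and 82.6 CPM across the Brg1 WT replicates and at 72.2, 81.8, 67.2 and 82.0 CPM across those of Brg1 cKO. The closest libraries, Brg1 WT replicate 4 and Brg1 cKO replicate 4, were less than 1 CPM apart. Its log2 fold change came to -0.39 ± 0.13 (edgeR adjusted p = 0.0641). It was called without Brg1 WT replicate 4 (-0.47, adjusted p = 0.0405), and with no other single library left out (adjusted p = 0.0569 to 0.150). Without Brg1 WT replicates 1 and 2, which had its highest levels, the log2 fold change was -0.14 (adjusted p = 0.401). With Stk31, 4 of the 9 members had all Brg1 cKO libraries below all Brg1 WT libraries, against 15% of all genes tested. No member had the reverse, against 11.1% of all genes.

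Tdrd1, a partner of the PIWI protein encoded by Piwil2, was at 111, 127, 105 and 105 CPM in Brg1 WT. In Brg1 cKO it was at 77.5, 109, 78.6 and 88.2 CPM. Brg1 cKO replicate 2 lay within the Brg1 WT range and the other 3 Brg1 cKO libraries below it. The log2 fold change of -0.34 ± 0.11 was not called (edgeR adjusted p = 0.0612). Without Brg1 cKO replicate 2 the log2 fold change was -0.46 and was called (adjusted p = 0.0095). No other single library left out gave a call (log2 fold change -0.37 to -0.27, edgeR adjusted p = 0.0770 to 0.155). Without Brg1 WT replicates 1 and 2 the log2 fold change was -0.24 (adjusted p = 0.319).

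Tdrd9, a DExH-type RNA helicase with a Tudor domain that acts with the PIWI protein encoded by Piwil4, showed the same layout. It was at 111, 99.0, 80.4 and 80.6 CPM across the Brg1 WT replicates and at 56.0, 87.8, 56.4 and 71.5 CPM across those of Brg1 cKO. Brg1 cKO replicate 2 again lay inside the Brg1 WT range. The log2 fold change was -0.45 ± 0.17 (edgeR adjusted p = 0.0836), and -0.60 without Brg1 cKO replicate 2 (adjusted p = 0.0227). With any other single library left out Tdrd9 was not called (log2 fold change -0.51 to -0.35, edgeR adjusted p = 0.0866 to 0.192). Without Brg1 WT replicates 1 and 2 the log2 fold change was -0.24 (adjusted p = 0.449).

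Tdrd12, the other helicase of the family, needed for secondary piRNAs, was at 11.2, 12.8, 12.5 and 10.5 CPM in Brg1 WT. In Brg1 cKO it was at 7.55, 10.3, 9.26 and 12.2 CPM, so Brg1 cKO replicate 4 was within the Brg1 WT range. The log2 fold change of -0.26 ± 0.15 was not called (edgeR adjusted p = 0.235, 95% interval -0.60 to 0.08).

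Tdrd6, a scaffold of the spermatid chromatoid body, was close to its limit of measurement, with 27, 47, 30 and 15 counts in Brg1 WT and 4, 11, 14 and 15 in Brg1 cKO. These came to 0.911, 1.80, 0.917 and 0.611 CPM and to 0.183, 0.401, 0.561 and 0.742 CPM. The log2 fold change of -1.17 ± 0.45 is the lowest of the 9 and also the least precise. It was not called (edgeR adjusted p = 0.0901, 95% interval -2.17 to -0.17), and the highest Brg1 cKO library was above the lowest Brg1 WT library.

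Tdrd5, a Tudor and LOTUS domain protein needed for transposon silencing and for the chromatoid body, was the member whose Brg1 cKO mean was not lower. It was at 46.0, 47.8, 35.8 and 35.9 CPM across the Brg1 WT replicates and at 33.2, 57.2, 40.2 and 42.5 CPM across those of Brg1 cKO. Brg1 cKO libraries were both the lowest (replicate 1) and the highest (replicate 2) of all 8. The log2 fold change was 0.07 ± 0.17 (edgeR adjusted p = 0.802), with a 95% interval of -0.31 to 0.45, and it was -0.10 without Brg1 cKO replicate 2.

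Ratios between members within a library do not depend on how libraries are scaled, but for the small constant added. For each of the 36 pairs, the log2 ratio of CPM (0.5 CPM added to each) was compared between genotypes by a two-sided exact permutation test over libraries. No pair passed after adjustment over the 36, but a pair could pass only if most of the 36 reached the smallest possible p. The test therefore says little about any single pair. The smallest p that 4 against 4 libraries can give, 0.0286, was reached by 9 pairs (adjusted p = 0.114), and each of the 9 includes Tdrd5 or Tdrkh. The log2 ratio of Tdrd5 to Tdrkh was -0.36 ± 0.16 in Brg1 WT and 0.37 ± 0.19 in Brg1 cKO (SD, n = 4), a difference of 0.74 and the largest of the 9: Tdrd5 was the lower of the 2 in CPM in Brg1 WT means and the higher in Brg1 cKO means. CPM takes no account of transcript length. Per kilobase of the longest principal Tdrkh transcript, Tdrd5 was the higher in both genotypes (Brg1 WT: 11.0 against 9.36, Brg1 cKO: 11.5 against 5.76). Over the shortest it was the lower in both (11.0 against 20.2, 11.5 against 12.4). The ratio of Tdrd5 to Tdrd9 differed by 0.51 and that of Tdrd5 to Rnf17 by 0.45. The ratio of Tdrkh to Rnf17 was the steadiest within Brg1 WT of these 9, -1.02 ± 0.060 in Brg1 WT and -1.30 ± 0.034 in Brg1 cKO.

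Levels of different genes were compared per kilobase of the longest coding transcript in GENCODE M21. In Brg1 WT, Stk31 was the most abundant, at 30.8 ± 6.09 CPM per kb (SD, n = 4), and its lowest library was above the highest of the next gene. Tdrd1 (21.6 ± 1.97 CPM per kb), Rnf17 (20.6 ± 3.07), Tdrd9 (19.3 ± 3.13) and Tdrd7 (17.5 ± 1.45) followed, each overlapping its neighbour. Tdrd5 (11.0 ± 1.71 CPM per kb) and Tdrkh (9.36 ± 1.46) overlapped each other below them. Tdrd12 (3.22 ± 0.305 CPM per kb) and Tdrd6 (0.150 ± 0.0729) were each apart from the gene above. The place of Tdrkh depends on the isoform: over its 3 principal transcripts, of 2642 to 5692 bases, its mean runs from 9.36 to 20.2 CPM per kb, while each of the other members has a single principal length apart from Tdrd1 (21.6 to 22.9 CPM per kb).

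The members also differed among libraries of 1 genotype. Within Brg1 WT, the highest library was replicate 1 for 5 members and replicate 2 for the other 4. Within Brg1 cKO, it was replicate 2 for 5 members, replicate 4 for 3 and replicate 1 for Tdrd7, and replicate 1 was the lowest for 6. The mean log2 CPM of 17 germ cell markers outside the family, such as Dazl and Tex14, is given beside this. Relative to its Brg1 WT mean, this list stood at 0.19, 0.01, -0.10 and -0.10 across the Brg1 WT replicates. Across the Brg1 cKO replicates it stood at -0.51, -0.16, -0.46 and -0.21.

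**Figure D2:**
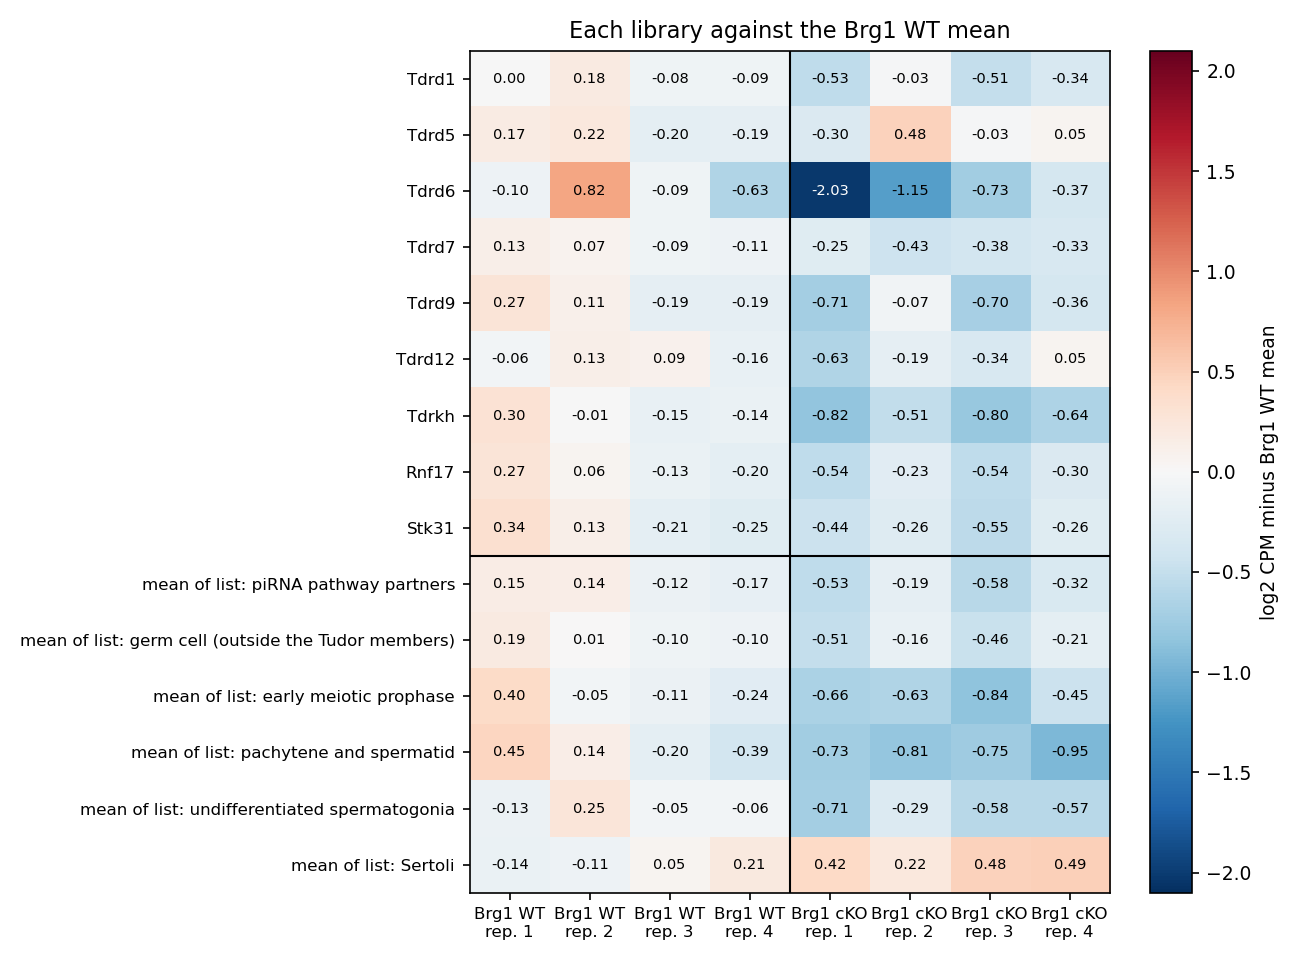
Log2 CPM minus the Brg1 WT mean (colour and printed value) for each member (upper block) and for the mean of each of 6 gene lists (lower block), in every library. Brg1 cKO replicates 1 and 3 are the lowest columns for most members and for the germ cell list, and the Sertoli list is positive in all 4 Brg1 cKO libraries (0.22 to 0.49).

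For each member the gene outside the family with the closest profile over the 8 libraries was found, by the root mean square (RMS) difference of log2 CPM relative to the Brg1 WT mean. The nearest such gene to Tdrd9 was Piwil2, at an RMS difference of 0.069, and the nearest to Stk31 was Mov10l1, at 0.067. Between members, the closest pair was Rnf17 and Stk31, at 0.060. Piwil2 encodes a PIWI protein and Mov10l1 a helicase of primary piRNA processing. The others were Arvcf for Tdrd1 (RMS 0.041), Pif1 for Tdrd5 (0.095), Cyp2u1 for Tdrd6 (0.301), Scfd2 for Tdrd7 (0.051), Zbtb25 for Tdrd12 (0.069), BC030307 for Tdrkh (0.039) and Ect2 for Rnf17 (0.047). These are descriptions over 8 libraries that share the genotype difference and the composition of each library.

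The promoters of the members are shown because 8 of the 9 genes had a negative log2 fold change. RefSeq (GRCm38.p6) gave start sites for 7 of the 9, with none used here for Tdrd6 and Rnf17. The 250 bases before the start are printed 5′ to 3′ on the gene's strand for the member with the largest called fall (Tdrkh), for the member that was not lower (Tdrd5) and for the 3 with the E-box CACGTG, a sequence bound by several basic helix-loop-helix factors. For genes with several starts the first listed is shown. Capitals mark the E-box, the E2F-type motif with the letters TTCCCGC, or the MYB-type motif, whose letters are TAACNG. Each was searched on both strands.
Tdrkh, chr3:94412994-94413243, strand plus: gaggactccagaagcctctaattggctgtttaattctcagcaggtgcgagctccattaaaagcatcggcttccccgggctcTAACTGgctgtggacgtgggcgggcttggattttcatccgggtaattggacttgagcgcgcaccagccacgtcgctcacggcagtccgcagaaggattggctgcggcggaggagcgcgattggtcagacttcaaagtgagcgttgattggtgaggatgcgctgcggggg
Tdrd5, chr1:156303349-156303598, strand minus: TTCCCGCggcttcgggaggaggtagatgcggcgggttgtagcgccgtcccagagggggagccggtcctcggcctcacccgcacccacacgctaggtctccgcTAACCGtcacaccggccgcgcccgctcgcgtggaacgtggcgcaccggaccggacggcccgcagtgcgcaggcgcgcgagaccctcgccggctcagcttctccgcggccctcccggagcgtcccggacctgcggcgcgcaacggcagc
Tdrd1, chr19:56825959-56826208, strand plus: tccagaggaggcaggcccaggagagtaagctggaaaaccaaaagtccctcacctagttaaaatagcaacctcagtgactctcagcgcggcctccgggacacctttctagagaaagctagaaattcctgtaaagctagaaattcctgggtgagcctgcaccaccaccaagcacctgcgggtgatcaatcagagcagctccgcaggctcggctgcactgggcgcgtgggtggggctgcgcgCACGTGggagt
Tdrd9, chr12:111971309-111971558, strand plus: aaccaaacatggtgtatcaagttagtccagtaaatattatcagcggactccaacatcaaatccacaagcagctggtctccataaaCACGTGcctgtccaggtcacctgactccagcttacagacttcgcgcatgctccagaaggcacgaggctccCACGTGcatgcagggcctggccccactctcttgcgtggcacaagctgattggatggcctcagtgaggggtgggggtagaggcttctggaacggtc
Stk31, chr6:49395289-49395538, strand plus: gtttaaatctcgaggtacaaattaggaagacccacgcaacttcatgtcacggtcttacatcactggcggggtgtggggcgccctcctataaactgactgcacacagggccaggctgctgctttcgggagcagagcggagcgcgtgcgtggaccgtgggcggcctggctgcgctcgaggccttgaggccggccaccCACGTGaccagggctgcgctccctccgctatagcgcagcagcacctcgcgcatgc
Tdrd9 held 2 copies of CACGTG, 165 and 95 bases before its start, Stk31 held 1 at 55 bases and Tdrd1 1 at 11 bases. This motif was in 6.02% of all 32851 RefSeq windows of the same length. That share is per window, while the 7 members had 13 windows, so the member counts are not on the same footing. None of these 3 genes was called by edgeR, and all 3 were called lower by DESeq2. DESeq2 also called Tdrkh and Tdrd7 lower, whose windows held no E-box, and Rnf17, which had no window. TTCCCGC was in Tdrd5 alone of the 7 members (3.82% of all windows), at the far end of its window. TAACNG was in Tdrd5, Tdrkh and 1 of the windows of Tdrd7 (19.8% of all windows). A match is a description of the sequence, and no binding was measured here.

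Of the 21 piRNA pathway partners of the family on the list used, 5 fell and none rose, and all 21 had a negative log2 fold change, with a median of -0.28 (all genes tested: 11.8% called lower, median 0.01). The 3 with the smallest adjusted p were Piwil4, Gm13718 and Spocd1. Piwil4, which encodes the nuclear PIWI protein of fetal gonocytes, averaged 15.5 ± 2.50 CPM in the Brg1 WT libraries and 8.07 ± 1.22 CPM in the Brg1 cKO libraries (SD, n = 4), a log2 fold change of -0.94 ± 0.15 (edgeR adjusted p = 0.00518). Gm13718, which RefSeq gives as a synonym of Btbd18, a nuclear regulator of pachytene piRNA loci, was at 62.6% of its Brg1 WT level in Brg1 cKO (log2 fold change -0.68 ± 0.15, edgeR adjusted p = 0.0158). Spocd1, which links the nuclear PIWI protein to DNA methylation, went from 3.79 to 1.52 CPM (log2 fold change -1.31 ± 0.30, edgeR adjusted p = 0.0183). The other called partners, named after their values were seen, were Piwil1 (log2 fold change -1.24), the PIWI protein of pachytene cells and spermatids, and Henmt1 (-0.43), the piRNA methyltransferase. Piwil2 (log2 fold change -0.39, edgeR adjusted p = 0.0821) and Mov10l1 (-0.35, adjusted p = 0.0911) were not called. The count of called partners moved with single libraries: it was 9 when Brg1 cKO replicate 2 was left out, 2 when either Brg1 WT replicate 2 or Brg1 cKO replicate 1 was, and 3 when either Brg1 WT replicate 1 or Brg1 cKO replicate 3 was. All genes called lower numbered 1980 without Brg1 cKO replicate 2 and 1052 to 1323 in those other fits. The count of partners also moved with the scaling. With the Sertoli list as no change, 21 fell (all genes: 7039 of 16059 lower), and with the germ cell list 3 fell (477 lower). With the undifferentiated spermatogonia list as no change, 2 fell and 2 rose (all genes: 309 lower and 9113 higher).

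Tudor domain genes outside the germ cell group were tested beside them. Of 22 tested, 5 rose, 1 fell and 16 were not called, with a median log2 fold change of 0.03, against 8.79% called higher and 11.8% called lower of all genes tested. The count that rose was 3 without Brg1 cKO replicate 1 (all genes: 556 of 16318 higher) and 3 with library totals alone (812 of 16059). It was 0 without Brg1 WT replicates 1 and 2 (96 of 16436). With the Sertoli list as no change, 0 rose and 11 fell (all genes: 53 of 16059 higher and 7039 lower). With the germ cell list 10 rose and 0 fell (4152 higher and 477 lower). With the undifferentiated spermatogonia list 16 rose and 0 fell (9113 higher and 309 lower). The 3 with the smallest adjusted p all rose: Arid4a (log2 fold change 0.44 ± 0.092, edgeR adjusted p = 0.0127), Spin1 (0.33 ± 0.070, adjusted p = 0.0138), a reader of histone methylation, and Phf20l1 (0.23 ± 0.052, adjusted p = 0.0155). Setdb1, a histone methyltransferase with Tudor domains, named after its value was seen, fell (log2 fold change -0.26 ± 0.072, edgeR adjusted p = 0.0334). Its call was lost without any 1 of Brg1 WT replicates 1, 2 and 3 and Brg1 cKO replicates 1 and 3.

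**Figure D3:**
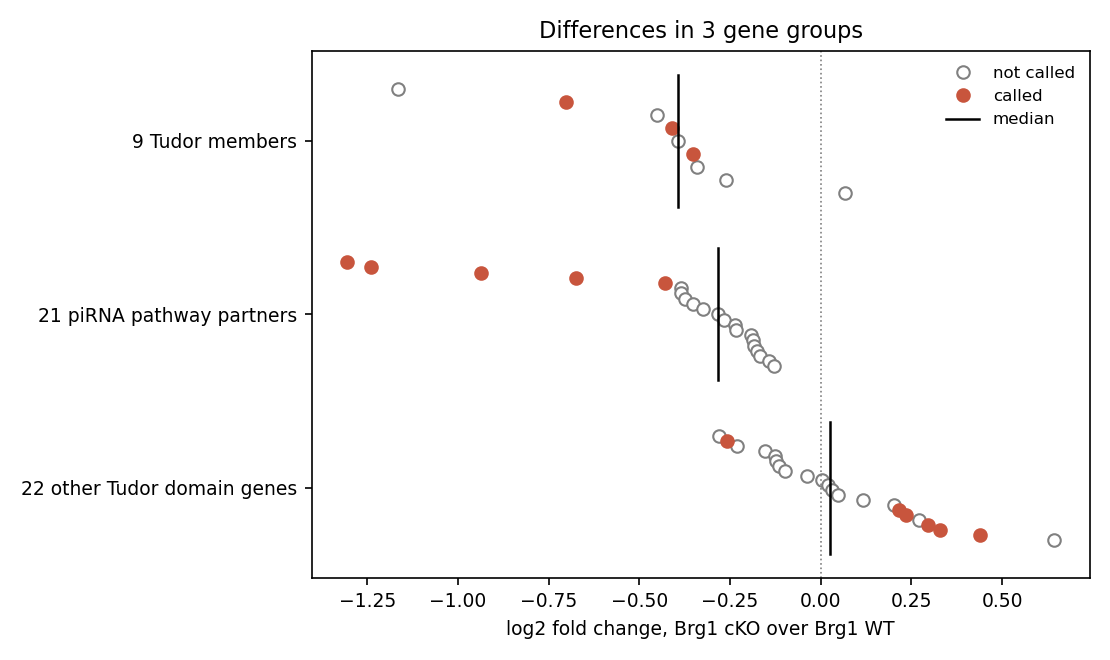
Log2 fold change, Brg1 cKO over Brg1 WT (x axis), of each gene in 3 groups (y axis), filled where called and open where not, with a vertical bar at the median. The medians are -0.39 for the 9 members, -0.28 for the 21 pathway partners and 0.03 for the 22 other Tudor domain genes.

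Marker lists give the composition of the libraries in which these values were measured. Of the 17 germ cell markers outside the family, 3 of which (Ddx4, Fkbp6 and Mael) are also on the partner list, 5 were lower and none higher, with a median log2 fold change of -0.27 and a summed level of 2547 to 2958 CPM across Brg1 WT and 1865 to 2411 across Brg1 cKO. Of 19 early meiotic prophase genes, 13 were lower (median -0.61), and of 19 undifferentiated spermatogonia genes, 9 were lower and 2 higher (median -0.51). Of 12 differentiating spermatogonia genes, 5 were lower and 1 higher (median -0.42). Of 23 pachytene and spermatid genes 14 passed the filter and 8 were lower (median -0.79). The 23 had summed levels of 227 to 340 CPM across Brg1 WT and 163 to 196 across Brg1 cKO. Prm1 and Prm2, the spermatid protamines, were at 0 in some libraries. Of 20 Sertoli genes, 9 were higher and none lower (median 0.38), with summed levels of 6516 to 8387 CPM across Brg1 WT and 8201 to 10680 across Brg1 cKO. Of the 10 Leydig genes 3 were higher (median 0.67), and of the 14 peritubular and stromal genes 2 were higher and 1 lower (median 0.43). Of the 10 endothelial (median 0.39) and 11 macrophage genes (median 0.48) none was called. All 10 Leydig, 12 peritubular and stromal, all 10 endothelial and 9 macrophage genes had a positive log2 fold change. In Brg1 cKO replicate 4, however, the means of these lists lay below the Brg1 WT mean (-0.25, -0.35, -0.42 and -0.31). No marker of these lists was at 0 in all libraries.

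Because these lists moved with the genotype, the members were fitted again with each of 3 lists taken as unchanged. With the germ cell list as no change, which raises the log2 fold change of the median gene by 0.31, Tdrkh alone was called (log2 fold change -0.39, edgeR adjusted p = 0.0252) and the members' median was -0.08. Of all 16059 genes, 477 were then called lower and 4152 higher. On that scale Tdrd12 was at 0.02 and Tdrd5 at 0.36 (adjusted p = 0.0510). With the undifferentiated spermatogonia list as no change, a shift of 0.51, the signs of 6 members turned positive and Tdrd5 was called higher (0.57, adjusted p = 0.00345), while Tdrkh (-0.20) was not called. On this scale 9113 of the 16059 genes were called higher and 309 lower. With the Sertoli list as no change, a shift of -0.39, 8 members were called lower, with Tdrkh at -1.10 (adjusted p = 0.000976), and Tdrd5 was at -0.32 (adjusted p = 0.292). Here 7039 of the 16059 genes were called lower and 53 higher. Without Brg1 WT replicates 1 and 2, Tdrkh was again the member called (-0.54, edgeR adjusted p = 0.0452), among 438 genes called in all. Those 2 libraries held each member's highest Brg1 WT level, so this setting is not a separate check. The part of cell composition in the members' differences was not tested.

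**Figure D4:**
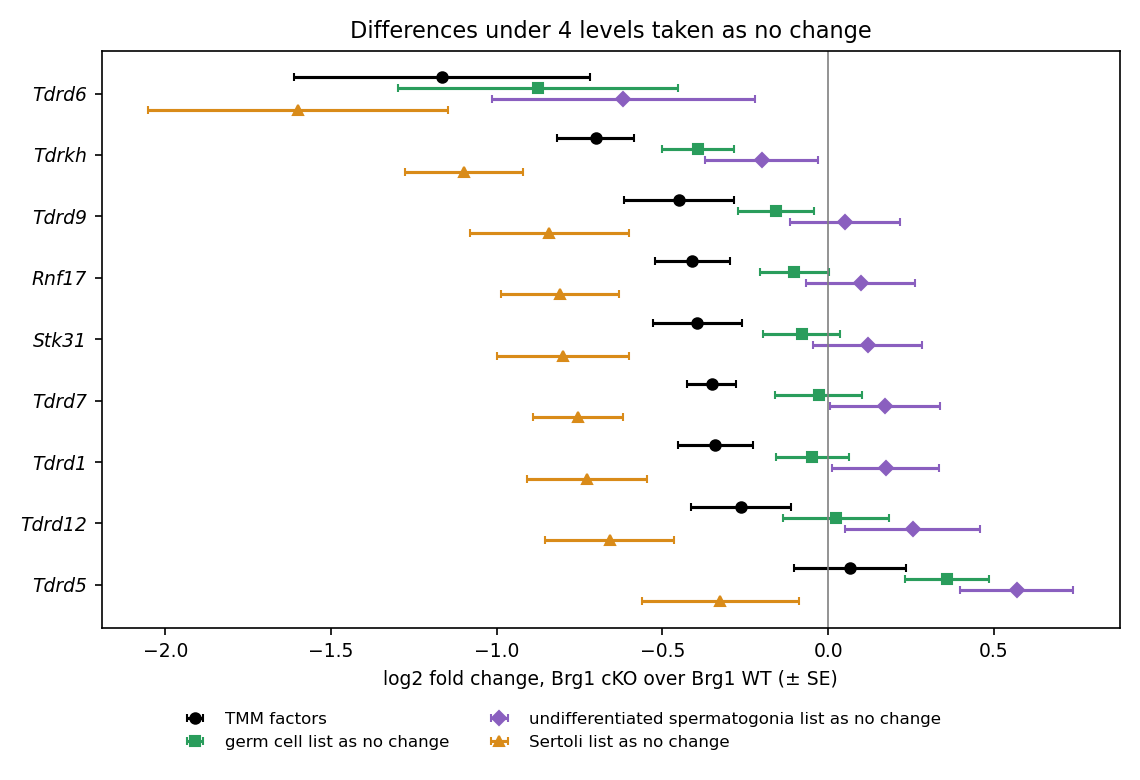
Log2 fold change, Brg1 cKO over Brg1 WT, ± SE (x axis), of each member (y axis) with TMM factors (black circles) and with the germ cell (green squares), undifferentiated spermatogonia (purple diamonds) or Sertoli (orange triangles) list taken as no change. Each scaling moves all members by nearly the same amount: Tdrkh runs from -1.10 to -0.20 and Tdrd5 from -0.32 to 0.57.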

How the data were processed

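mRNA-seq of spermatogenic cells from mice at postnatal day 12 was used, with 4 Brg1 WT and 4 Brg1 cKO libraries grouped by their labelled genotype. The authors deposited estimated counts per gene symbol; per the submitters' processing notes, kallisto 0.42.5, edgeR and the mm9 build were used. Of these values 49.6% were not whole, and they were rounded. Members and lists were chosen with earlier results of these data known. Genes were filtered with filterByExpr, library totals were scaled by TMM factors, and all 16059 remaining genes were fitted in edgeR 4.0.16 (R 4.3.3) with the quasi-likelihood test, Benjamini-Hochberg adjusted, called at an adjusted p under 0.05. SE is the log2 fold change divided by the root of F. The fit was tested on simulated data. Named genes were the 9 members, Smarca4, up to 3 called genes of each pathway list by adjusted p, and the nearest gene outside the members to each member by log2 CPM profile (2 counts added), among genes with an average log2 CPM of at least 1. Gene lengths came from GENCODE M21 and promoters from RefSeq, both on GRCm38, so no gene coordinates in mm9 are given. Pairs of replicates within a genotype differed by more than sampling noise (chi-square per degree of freedom 20.2 to 68.2 over 12 pairs). Alternatives were other scalings, filters and tools (DESeq2 1.42.0, limma 3.58.1), a test of changes over 1.2-fold, a replicate block, and leaving out libraries. Library totals of 20456743 to 32596038 give every member but Tdrd6 over 100 counts a library.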

Additional observations from a re-analysis of the deposited data

Results flagged for a closer look

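Piwil4 in Brg1 cKO replicate 3, at 6.26 CPM, lay further from the other 3 Brg1 cKO libraries (8.56 to 8.86 CPM) than Dixon's limit for 4 values allows, with the gap making up 0.887 of the range. It was the only such value among the 32 sets of 4 libraries checked, and chance gives about 1 in 20.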

How the results depend on the processing

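Tdrkh had a negative log2 fold change in each of the 21 other settings run (-1.10 to -0.20), and Tdrd6 in each of the 20 that kept it (-1.60 to -0.62). The scaling mattered most. With the germ cell list as no change, 4629 genes were called. These included 1 member and 3 partners called lower, and 0 other Tudor domain genes lower and 10 higher. The members' median was then -0.080, and Tdrd12 turned to 0.024. With the undifferentiated spermatogonia list as no change, 9422 genes were called, 0 members lower and 1 higher, 2 partners lower and 2 higher, and 0 other Tudor domain genes lower and 16 higher. The members' median was then 0.12, with Tdrd1 at 0.17, Tdrd7 at 0.17, Tdrd9 at 0.050, Tdrd12 at 0.26, Rnf17 at 0.10 and Stk31 at 0.12. With the Sertoli list as no change, 7092 genes were called, 8 members, 21 partners and 11 other Tudor domain genes lower, 0 of the latter higher, with a members' median of -0.80 and Tdrd5 at -0.32. Library totals alone gave 3 other Tudor domain genes higher and Tdrd5 at -0.011. Calls were split 1900 lower to 1412 higher with TMM factors, 2184 to 812 with library totals, and 2227 to 2228 with DESeq2, which called 6 members. A test of changes over 1.2-fold called 619 genes, 1 member, 1 partner, and 0 other Tudor domain genes either way.

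Leaving out 1 library gave 1608 to 3477 genes called, 2 to 5 members lower and 0 higher, a members' median of -0.47 to -0.31, 2 to 9 partners lower, 0 to 3 other Tudor domain genes lower and 3 to 6 higher, and Tdrd5 between -0.10 and 0.18. Leaving out Brg1 WT replicates 1 and 2 gave 438 genes, 1 member, 0 partners, and 0 other Tudor domain genes lower and 0 higher. Where a library was left out, the exact test of member pairs could not pass the threshold. The cause of these moves was not tested. Replicate numbers did not pair libraries (same-number correlations -0.21, 0.13, -0.37 and 0.15). With the replicate block, 1914 genes were called, 3 members lower (Tdrd1 gained at adjusted p = 0.0344, Rnf17 lost at 0.0614), 0 other Tudor domain genes lower and 3 higher. Taking 50 bases after the start into the promoter windows gave 4 members with TAACNG, and the other motif counts did not move. Depth limits Tdrd6 alone of the members, which the filter of 1 CPM in 4 libraries removed.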
